A study of Mus musculus with 9 samples.

Results

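The genes described here are 10 of the 14905 in the table, chosen by name: the glucose transporter gene Slc2a1, the glycolytic enzyme genes Hk2, Hk3, Pfkl, Aldoa, Gapdh, Pgk1, Pkm and Ldha, and Hif1a, which encodes the oxygen-regulated subunit of the transcription factor HIF1. RNA was sequenced from cells sorted out of mouse visceral adipose tissue as positive for both F4/80 and CD11b, surface proteins that macrophages carry together. The KO group consisted of 5 libraries of genotype Nucb2-/- and the WT group of 4 wild-type libraries, with C57BL/6 as the strain of both. The product of Nucb2 is nucleobindin-2, which binds calcium and is the precursor of the peptide nesfatin-1. The name of the deposited table carries the abbreviation HFD, which commonly stands for high-fat diet, for all 9 libraries of both groups; the sample labels themselves give no diet. They also give no age or sex, do not say which cells carry the disruption or how it was made, and do not state which mouse or mice each library came from; p-values then reflect library-to-library spread, part of which may be technical. Values are normalized counts, that is read counts divided by 1 factor per library, with a floor of 1; none of the 90 values of the 10 genes was at that floor.

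Glycolysis splits glucose into pyruvate in the cytosol, and lactate dehydrogenase then turns pyruvate into lactate. HIF1 is a pair of proteins, HIF1-alpha and ARNT, that accumulates when oxygen is low, because the prolyl hydroxylases of the Egln genes otherwise mark HIF1-alpha for destruction through the VHL protein; it binds short DNA elements near the genes of glucose uptake and glycolysis. Macrophages raise glycolysis when they are activated by bacterial products, and HIF1 is known to be active in macrophages of obese adipose tissue. HIF1-alpha is controlled mainly as a protein, which these data do not measure.

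The 2 short letter strings to which HIF1 binds, ACGTG and GCGTG, were searched on both strands in RefSeq promoter windows of GRCm38.p6, each from 250 bases before to 50 bases after a gene's start. All 10 genes had a window. At least 1 match was found in the first listed window of 8 of the 10 genes, against 60.4% of the 11283 genes of the table with a window and 43.8% of all 27025 genes. The first windows of Aldoa and Pkm held none, and each of these genes had a further window that held at least 1. The median share of G and C was 65.2% in the 10 windows, against 60% in those of the genes in the table and 52.7% in those of all genes, and the search was not corrected for it. A match is a match of letters, not a site of binding. A run of CACGTG, the letters also read by MYC and the clock proteins, contains ACGTG on both strands. The following 4 windows are shown 5′ to 3′ with the matches in capitals, because they are those of the transporter gene, of a pair of enzyme genes at high level, and of the member with the widest spread between libraries.
Slc2a1, chr4:119108495-119108794, plus strand: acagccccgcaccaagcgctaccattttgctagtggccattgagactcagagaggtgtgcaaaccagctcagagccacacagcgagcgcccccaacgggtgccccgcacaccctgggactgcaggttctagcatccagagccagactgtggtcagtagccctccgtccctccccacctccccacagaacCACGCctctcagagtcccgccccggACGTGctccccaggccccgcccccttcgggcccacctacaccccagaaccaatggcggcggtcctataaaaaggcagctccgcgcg
Pgk1, chrX:106186850-106187149, plus strand: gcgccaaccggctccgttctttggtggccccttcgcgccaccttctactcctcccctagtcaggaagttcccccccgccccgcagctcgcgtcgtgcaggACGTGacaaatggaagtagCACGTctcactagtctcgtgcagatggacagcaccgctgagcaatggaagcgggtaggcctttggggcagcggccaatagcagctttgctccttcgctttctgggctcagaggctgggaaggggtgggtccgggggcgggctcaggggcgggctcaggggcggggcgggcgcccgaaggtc
Ldha, chr7:46845554-46845853, plus strand: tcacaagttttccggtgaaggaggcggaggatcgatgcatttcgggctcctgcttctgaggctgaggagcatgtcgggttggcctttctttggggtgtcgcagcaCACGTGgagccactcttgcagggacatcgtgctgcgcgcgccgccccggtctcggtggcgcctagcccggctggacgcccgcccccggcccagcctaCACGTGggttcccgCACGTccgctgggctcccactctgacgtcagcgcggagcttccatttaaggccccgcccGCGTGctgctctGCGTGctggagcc
Hk3, chr13:55021336-55021635, minus strand: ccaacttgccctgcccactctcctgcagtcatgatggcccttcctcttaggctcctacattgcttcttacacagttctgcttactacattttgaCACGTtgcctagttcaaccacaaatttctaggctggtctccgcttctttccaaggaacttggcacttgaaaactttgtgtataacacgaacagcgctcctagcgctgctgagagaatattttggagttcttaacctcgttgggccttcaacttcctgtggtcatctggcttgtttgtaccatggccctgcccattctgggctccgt
Ldha held 7 matches, 4 of them in a pair of CACGTG runs, and all 7 lay in 5 separate stretches. Slc2a1 and Pgk1 held 2 matches each and Hk3 held 1.

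As a check of the labels, Nucb2 averaged 1500 ± 219 normalized counts over the 5 KO libraries, against 4313 ± 791 over the 4 WT libraries (SD; log2 difference -1.52, limma adjusted p = 0.00054), with no overlap. With the replicate block the difference was -1.58 (adjusted p = 0.052) and in the 6 deeper libraries alone -1.61 (adjusted p = 0.12), so that it no longer passed in either. Read totals inferred from the smallest step in each library lay between 51148957 and 85200101 reads for KO, against 51977948 to 75567740 reads for WT. The 6 deeper libraries (KO replicates 1 to 4, WT replicates 1 and 2) had at least 74937713, and the 3 shallower ones (KO replicate 5, WT replicates 3 and 4) at most 55004977. The sum over 10 macrophage genes, Adgre1 (F4/80) and Itgam (CD11b) among them, lay between 1505690 and 1681750 for KO, against 1546220 to 1737530 for WT. Such a sum is carried by the most abundant genes. Singly, 0 of these 10 genes passed in limma (lowest adjusted p = 0.067), against 0.309% of all genes, and 4 lay above 0 and 6 below. An unadjusted p under 0.05 was found for 5 of the 10, against 9.14% of all genes. KO and WT ranges did not overlap for 2 of the 10, against 3.15% of all genes. Summed markers of other cells were 3807 to 6539 in KO and 1502 to 3313 in WT libraries for 8 endothelial genes, and 5412 to 17763 in KO and 1968 to 7242 in WT for 7 mesothelial genes. For 9 genes of mast cells, eosinophils and basophils they were 1513 to 3140 in KO and 5319 to 9790 in WT. Of these 9 genes 7 lay below 0 and 2 above. In limma 4 of the 9 passed as lower in KO (lowest adjusted p = 0.0092), against 0.127% of all genes. Prg2 was at the floor in all WT libraries and Fcer1a in all KO libraries. Sums of adipocyte, neutrophil, red cell and lymphocyte genes had overlapping KO and WT ranges. For 10 genes induced by tissue dissociation the sum was 188295 to 260190 in KO and 151830 to 204136 in WT libraries. Rn45s, the ribosomal RNA precursor, took 1.84% to 2.16% of normalized counts in KO and 2.64% to 3.54% in WT libraries. The part of these differences in the results below was not tested. In a sorted population, fewer cells of a type and less RNA per cell cannot be told apart.

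None of the 10 genes differed between KO and WT past the threshold. The enzyme genes at highest level stayed within narrow bounds. Aldoa (aldolase A), Pgk1 (phosphoglycerate kinase), Pkm (pyruvate kinase) and Ldha (lactate dehydrogenase A) had 95% intervals for the KO to WT fold that all lay between 0.845 and 1.13. Hk3, a hexokinase of myeloid cells, and Pfkl, the liver-type phosphofructokinase, were the 2 genes with an unadjusted p under 0.05, in opposite directions. In limma, 0 of 10 passed an adjusted p of 0.05, where 46 of 14905 genes (0.309%) did, 27 higher and 19 lower in KO. An unadjusted p under 0.05 was found for 2 of 10 members and for 9.14% of all genes, and with limma-voom on the reads for 1 of 10. The KO and WT ranges overlapped for all 10, while they did not overlap for 3.15% of all genes (1.55% with KO above WT, 1.6% with KO below). Of the 10 log2 differences 7 lay below 0, against 47.6% of all genes, with a median of -0.06 beside 0.02 over all genes.

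**Figure D1:**
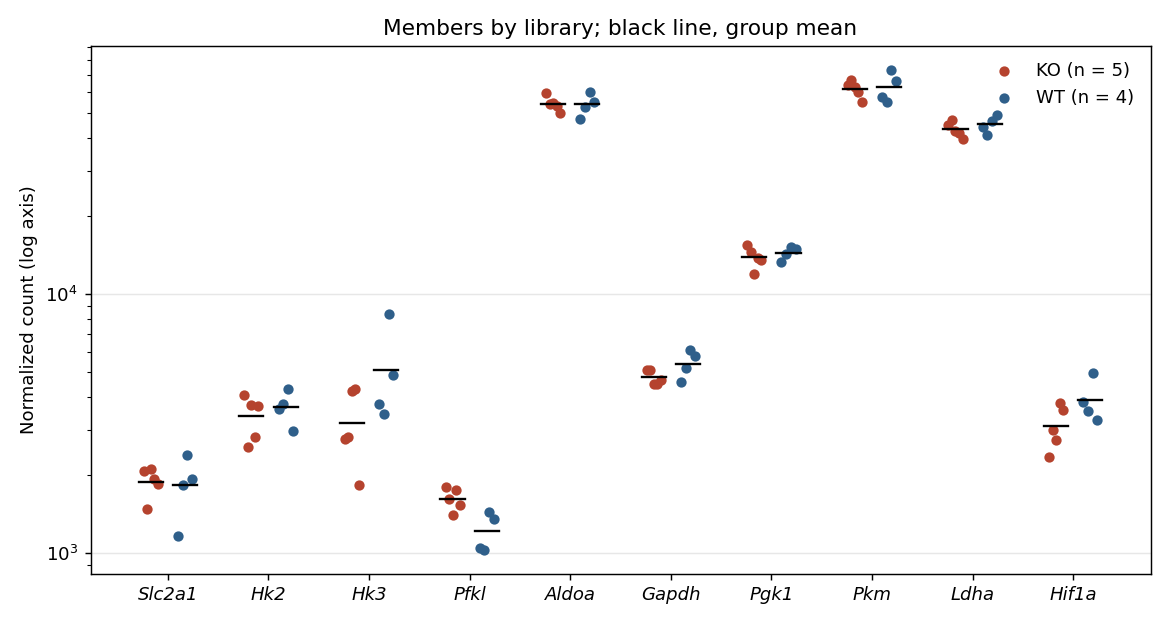
Normalized count (log axis) of each of the 10 genes in the 5 KO libraries (red, left) and the 4 WT libraries (blue, right), 1 point per library, with the group mean as a black line. The groups overlap for all 10 genes, and the points of Hk3 run from 1829 to 8351.

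Glucose enters macrophages mainly through GLUT1, the product of Slc2a1 (chromosome 4, 119108711 to 119137983 on the plus strand, mm10). Slc2a1 had 2073, 1479, 2115, 1940 and 1856 normalized counts in KO replicates 1 to 5, against 1172, 1838, 2395 and 1936 in WT replicates 1 to 4. The lowest and the highest library were both WT, so the KO range lay inside the WT range. The log2 difference was 0.08 (95% interval -0.35 to 0.51; limma adjusted p = 0.93), an interval that runs from 0.784 to 1.42 times the WT level. It was 0.36 among the 6 deeper libraries, -0.21 among the 3 shallower ones, and -0.12 without WT replicate 1 (adjusted p = 0.83). Per kilobase of exon, only Pfkl had a lower mean level among the 10 genes.

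Hexokinases put the first phosphate on glucose; Hk1 is the housekeeping form, Hk2 is inducible and bound to mitochondria, and Hk3 is found in myeloid cells. Hk2 had 4078, 2577, 3745, 2823 and 3721 normalized counts in KO replicates 1 to 5, against 3598, 3776, 4323 and 2963 in WT replicates 1 to 4 (log2 difference -0.12, SE 0.16, limma adjusted p = 0.85). The ranges overlapped over most of their length, and the difference was -0.18 among the 6 deeper libraries and 0.056 among the 3 shallower ones. Hk3 had 2754, 2809, 4245, 4315 and 1829 normalized counts in KO replicates 1 to 5, against 3771, 3458, 8351 and 4872 in WT replicates 1 to 4. KO replicate 5 was the lowest and WT replicate 3 the highest, and 3 KO libraries lay below all WT libraries. The mean was 3191 ± 1069 in KO and 5113 ± 2242 in WT (± SD, 5 and 4 libraries), and the log2 difference of -0.66 (95% interval -1.23 to -0.09) had an unadjusted p of 0.026 and a limma adjusted p of 0.46. The difference was not alike in the depth classes: it was -0.07 among the 6 deeper libraries (adjusted p = 0.96), and -1.80 among the 3 shallower ones, which hold 1 KO and 2 WT libraries and were not tested on their own. Without WT replicate 3 it was -0.39. Hk3 also had the widest spread of the 10, with a highest library 4.57 times the lowest and a coefficient of variation of 33.5% in KO and 43.8% in WT libraries.

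Phosphofructokinase commits glucose to glycolysis. Pfkl had 1798, 1624, 1402, 1761 and 1531 normalized counts in KO replicates 1 to 5, against 1048, 1034, 1450 and 1363 in WT replicates 1 to 4. In 4 of 5 KO libraries it was above every WT library, and KO replicate 3 lay between WT replicates 4 and 3. The mean was 1623 ± 163 in KO and 1224 ± 214 in WT (± SD, 5 and 4 libraries), a log2 difference of 0.42 (95% interval 0.03 to 0.80) with an unadjusted p of 0.035 and a limma adjusted p of 0.49. Within the deeper libraries the difference was 0.65 (adjusted p = 0.44) and among the 3 shallower ones 0.12.

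Among the 10 genes, the enzyme genes Aldoa, Pgk1, Pkm and Ldha had the smallest differences and the 4 highest levels per kilobase of exon. Aldoa, whose product splits fructose bisphosphate, had 59930, 54401, 54686, 53189 and 49784 normalized counts in KO replicates 1 to 5, against 47316, 52961, 60349 and 55247 in WT replicates 1 to 4 (log2 difference 0.01, 95% interval -0.15 to 0.18). Its KO range lay inside the WT range. Pgk1, on chromosome X from 106187100 to 106203699, whose product makes the first ATP of the pathway, had 15526, 14546, 11998, 13835 and 13556 in KO replicates 1 to 5, against 13316, 14234, 15154 and 14897 in WT replicates 1 to 4 (log2 difference -0.06, interval -0.24 to 0.13). Here the highest and the lowest library were both KO. Pkm, whose splice forms M1 and M2 the table does not separate, had 64259, 67010, 62758, 60431 and 55156 in KO replicates 1 to 5, against 57426, 55290, 73311 and 66639 in WT replicates 1 to 4 (log2 difference -0.02, interval -0.21 to 0.16). Ldha, whose product makes lactate, had 44978, 46794, 42657, 41914 and 39756 in KO replicates 1 to 5, against 44231, 41103, 46367 and 48966 in WT replicates 1 to 4 (log2 difference -0.06, interval -0.22 to 0.09). For these 4 genes the limma adjusted p lay between 0.83 and 0.97. In each of them the highest library was 1.23 to 1.33 times the lowest. Within depth classes the log2 differences of Aldoa, Pgk1, Pkm and Ldha were 0.15, 0.015, 0.17 and 0.047 among the 6 deeper libraries, and -0.21, -0.15, -0.34 and -0.26 among the 3 shallower ones. The sign was thus below 0 for all 4 where the single KO library was set against 2 WT libraries.

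Gapdh (chromosome 6, 125161715 to 125166467 on the minus strand), the enzyme gene often used as a constant control in expression work, had 5122, 5099, 4504, 4517 and 4665 normalized counts in KO replicates 1 to 5, against 4581, 5180, 6074 and 5763 in WT replicates 1 to 4. The mean was 4782 ± 307 in KO and 5400 ± 659 in WT (± SD, 5 and 4 libraries), and 2 KO libraries lay below every WT library. The log2 difference was -0.17 (95% interval -0.41 to 0.07; limma adjusted p = 0.70). It was -0.021 among the 6 deeper libraries and -0.34 among the 3 shallower ones.

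**Figure D2:**
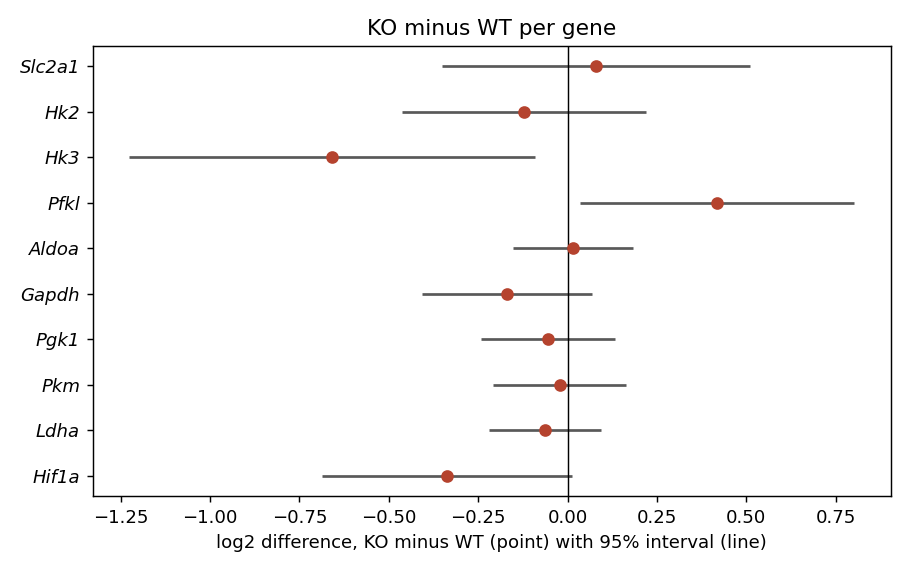
Log2 difference (KO minus WT, horizontal axis) of each of the 10 genes in limma, with its 95% interval as a line. The intervals of Aldoa, Pgk1, Pkm and Ldha are the shortest, between -0.24 and 0.18, and those of Hk3 and Pfkl do not reach 0.

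Hif1a had 2345, 2998, 2737, 3793 and 3569 normalized counts in KO replicates 1 to 5, against 3823, 3530, 4952 and 3261 in WT replicates 1 to 4. All KO libraries lay below WT replicate 1, and 3 of 5 lay below every WT library. The mean was 3088 ± 594 in KO and 3892 ± 743 in WT (± SD, 5 and 4 libraries), and the log2 difference of -0.34 (95% interval -0.69 to 0.01) did not pass (unadjusted p = 0.058, limma adjusted p = 0.56). It was -0.33 within the 6 deeper libraries and -0.17 within the 3 shallower ones, and over the alternatives it ranged from -0.42 to -0.21, the smallest without WT replicate 3. Among 7280 genes at or above the median level that have no predicted name and are not members, the 3 whose log2 values were most like those of Hif1a over the 9 libraries were Ubr7 (Pearson r = 0.90), Casp1 (r = 0.90), which encodes the inflammasome protease caspase-1, and Tmem140 (r = 0.87). Their Spearman rho with Hif1a was 0.73, 0.83 and 0.83. Group means were not taken out for these values, so the choice itself favours genes that share the direction of Hif1a. All 3 were lower in KO, like Hif1a, with log2 differences of -0.67, -0.50 and -0.43 (limma adjusted p = 0.30, 0.095 and 0.36). With 9 libraries and so many genes such correlations describe these libraries only. The genes most like Pgk1 were Bckdk, a kinase of the branched-chain keto acid dehydrogenase (r = 0.94), Cs, the citrate synthase gene (r = 0.94), and Acadvl, an enzyme of fatty acid oxidation (r = 0.93).

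After the group means were taken out, the log2 values of Aldoa, Gapdh, Pgk1, Pkm and Ldha varied together, with Pearson r between 0.46 and 0.85 over the 9 libraries for the 10 pairs. Pfkl, outside these 5, varied with them as well, with r from 0.61 (Ldha) to 0.78 (Gapdh). Hif1a varied with none of the 5 to that extent (r between -0.32 and 0.03). The same held for Hk2, with r from -0.38 (Ldha) to 0.28 (Aldoa). Slc2a1 and Hk3 were mixed. Their r with the 5 ran from 0.03 (Ldha) to 0.77 (Aldoa) for Slc2a1 and from -0.005 (Pgk1) to 0.73 (Pkm) for Hk3. These values are a description; the libraries share their scaling, and depth differs between them.

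Set per kilobase of merged exon, the levels of the 10 genes spanned 76.7 fold. Aldoa was first at 29823 ± 2004 normalized counts per kb in KO and 29588 ± 2963 in WT libraries (± SD, 5 and 4 libraries), followed by Pkm at 23826 ± 1721 in KO and 24304 ± 3219 in WT and Ldha at 22807 ± 1443 in KO and 23835 ± 1757 in WT. Aldoa was above Pkm in 9 of 9 libraries, while Pkm was above Ldha in 6 of 9. Pgk1, at 7612 ± 715 in KO and 7890 ± 449 in WT, came next, and Gapdh followed at 3198 ± 205 in KO and 3612 ± 441 in WT, with ranges that overlapped neither neighbour. Hk3 stood at 951 ± 319 in KO and 1525 ± 668 in WT. Below it Hif1a, Hk2 and Slc2a1 had overlapping ranges between 359 and 909 per kb, with Hif1a above Hk2 in 5 of 9 libraries, and Pfkl was last at 435 ± 43.8 in KO and 328 ± 57.4 in WT. Among 14395 genes with a length, Aldoa ranked 192, Pkm 223 and Ldha 238, and Gapdh ranked 1288.

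Several of these genes have near-identical copies elsewhere in the genome, and how reads shared between copies were counted is not given in the sources used here. Of the 50-base windows of the Gapdh transcript, 82.5% also occurred letter for letter in a transcript of another gene, and 213 of the 218 genes involved were annotated as pseudogenes. The share was 68.0% for Pgk1, 34.4% for Pkm, 16.6% for Ldha, 13.5% for Aldoa and 2.18% for Hif1a. It was 0 for Slc2a1, Hk2 and Hk3 and 0.0543% for Pfkl. Gm12070, which shares 903 of these windows with Gapdh and was picked after its value was seen, had 5244 ± 277 normalized counts in KO libraries, against 5752 ± 563 in WT libraries. Gapdh together with the 6 other rows that share a window with it had 10386 ± 535 in KO and 11566 ± 1028 in WT libraries. Levels of Gapdh and Pgk1 are therefore uncertain. In the annotation, exons of Unc5a overlap Hk3 and exons of Iffo1 overlap Gapdh on the opposite strand, both genes are rows of the table, and the use of strand in counting is not stated.

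**Figure D3:**
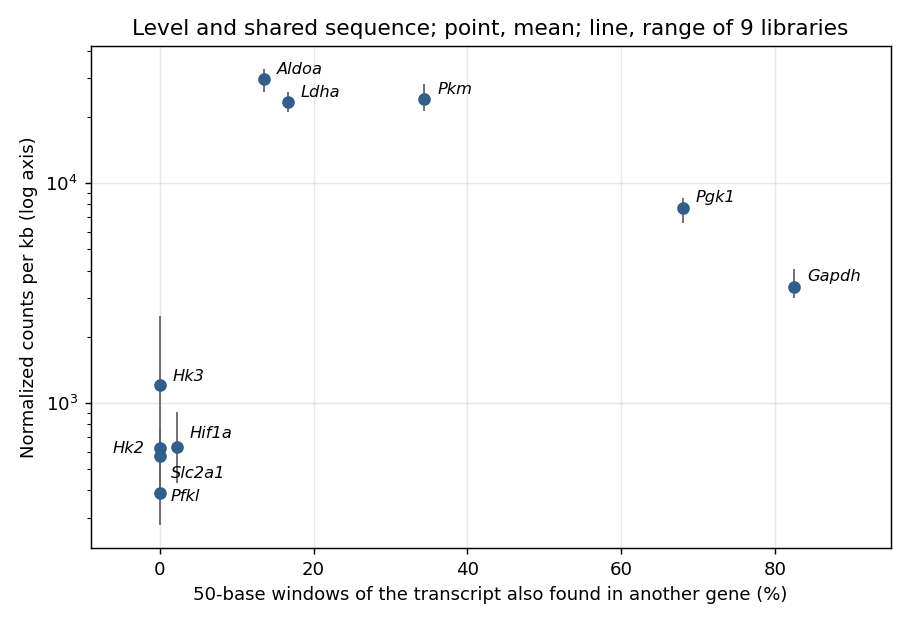
Mean normalized count per kb over the 9 libraries (vertical log axis, point) with the range over libraries (line), against the percentage of 50-base windows of the transcript that also occur in another gene (horizontal axis). Gapdh, at 82.5%, stands below Aldoa, Ldha and Pkm, at 13.5% to 34.4%, and below Pgk1, at 68.0%. Slc2a1, Hk2, Hk3, Pfkl and Hif1a, at 0 to 2.18%, stand below Gapdh.

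Isozyme shares, each gene's part of the per-kb sum of its family, differed in how steady they were. In the phosphofructokinase family the platelet-type gene Pfkp carried most of the sum, and it was the one family with shares that separated the groups. Pfkp made up 73.6%, 75.2%, 76.3%, 70.6% and 73.1% in KO replicates 1 to 5, against 78.9%, 79.7%, 81.5% and 79.3% in WT replicates 1 to 4. The muscle-type gene Pfkm made up 4.03% to 7.61% in KO and 2.14% to 3.79% in WT libraries, and Pfkl 20.6% ± 2.40 in KO and 17.4% ± 1.11 in WT (± SD, 5 and 4 libraries). Of the 14 shares computed over 5 families, these 2, of Pfkp and Pfkm, did not overlap between the groups; shares of 1 family sum to 100% and are not independent, and they were not tested. The level of Pfkp itself was 6712 ± 401 normalized counts in KO libraries, against 6509 ± 1369 in WT. The endothelial marker sums given above also had KO and WT ranges that did not overlap, and the part of other cells in these shares was not tested.

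Hk3 made up 49.6% ± 9.96 of hexokinase in KO and 59.3% ± 9.0 in WT libraries, Hk2 32.8% ± 8.05 in KO and 27.0% ± 5.43 in WT, and Hk1 17.6% ± 3.91 in KO and 13.7% ± 4.06 in WT (± SD, 5 and 4 libraries). In KO replicate 5 Hk2 was the leading hexokinase, at 43.3%, and in the other 8 libraries Hk3 led. Ldha made up 92.7% ± 2.34 of lactate dehydrogenase in KO and 95.5% ± 1.16 in WT, the rest being Ldhb, the heart-type subunit. Aldoa made up at least 99.7% of the sum with Aldoc in every library. Eno1, the main enolase gene, made up 39.6% ± 2.19 of its family in KO and 39.7% ± 2.22 in WT, and Eno1b 57.6% ± 2.11 in KO and 57.6% ± 3.31 in WT. Since 70.5% of the 50-base windows of Eno1 also occur in Eno1b, these last 2 shares cannot be told from a split of the same reads.

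**Figure D4:**
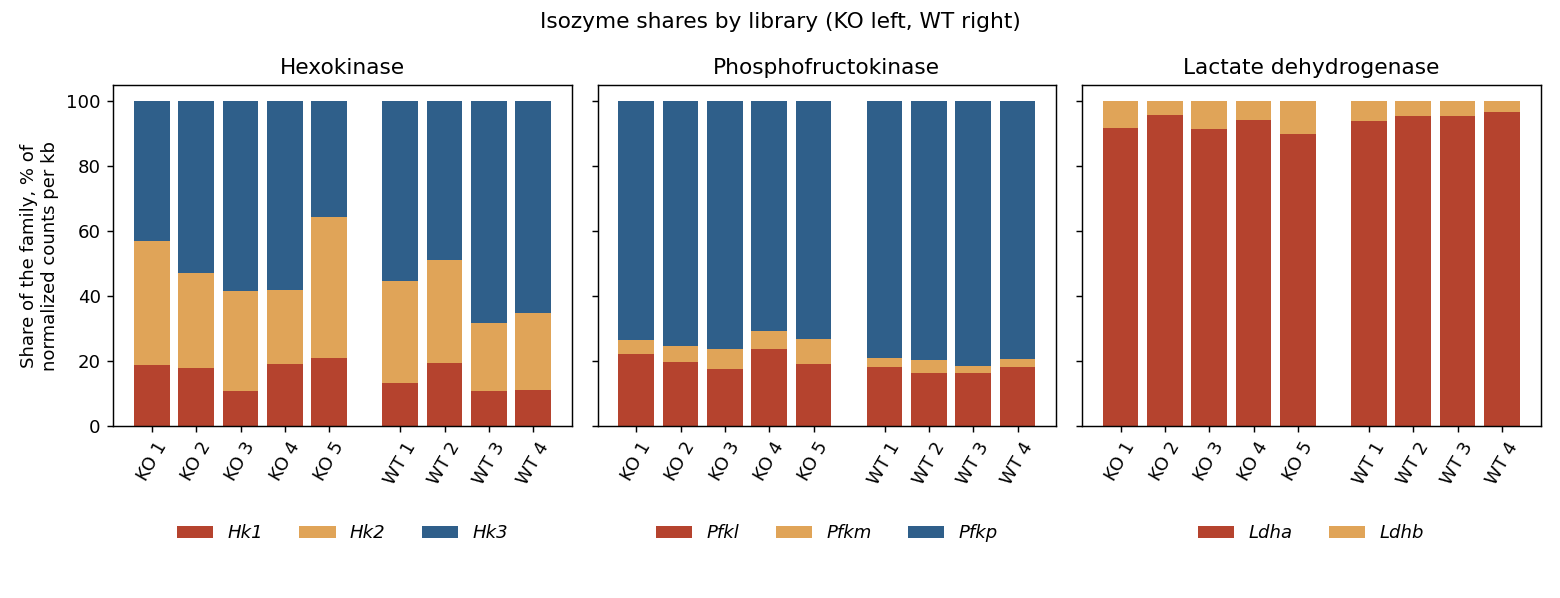
Share of each isozyme in its family, in % of normalized counts per kb (vertical axis), for hexokinase, phosphofructokinase and lactate dehydrogenase, 1 bar per library, KO left and WT right. Pfkp takes 70.6% to 76.3% in KO and 78.9% to 81.5% in WT libraries.

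Of 20 further genes of glucose uptake, glycolysis and lactate export, 0 rose, 0 fell and 20 did not pass in limma. Of all genes 0.309% passed. An unadjusted p under 0.05 was found for 4 of the 20, against 9.14% of all genes. The median log2 difference was 0.02, and 11 of the 20 lay above 0 and 9 below. The 4 were all above 0 in KO. Pfkm had 260, 322, 380, 342 and 485 normalized counts in KO replicates 1 to 5, against 123, 191, 152 and 139 in WT replicates 1 to 4 (log2 difference 1.22, SE 0.42, limma adjusted p = 0.32), and its groups did not overlap. Slc16a1, which encodes the lactate transporter MCT1, had 2482 ± 312 in KO and 1778 ± 377 in WT (± SD, 5 and 4 libraries; log2 difference 0.50, adjusted p = 0.33). Ldhb had 2329 ± 718 in KO and 1465 ± 356 in WT (0.64, adjusted p = 0.39). Slc2a3, which encodes the high-affinity transporter GLUT3, had 1217, 466, 423, 915 and 418 normalized counts in KO replicates 1 to 5, against 50.3, 383, 448 and 186 in WT replicates 1 to 4 (log2 difference 1.62, adjusted p = 0.35). For Slc2a3 the log2 difference was 0.97 without WT replicate 1, its lowest library, and 2.29 in the 6 deeper libraries.

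HIF1 is also known to act on genes outside glycolysis, such as those of collagen modification, angiogenesis and mitophagy. Of 26 further targets 25 were measured, of which 0 rose and 0 fell, where 0.309% of all genes passed. Their median log2 difference was 0.05. An unadjusted p under 0.05 was found for 3 of the 25, against 9.14% of all genes. These were P4ha2 and Bhlhe40, above 0, and Ak4, below 0. P4ha2, a collagen prolyl hydroxylase, had 1086, 1068, 740, 954 and 1281 normalized counts in KO replicates 1 to 5, against 400, 641, 526 and 623 in WT replicates 1 to 4. Its groups did not overlap (log2 difference 0.91, SE 0.26, unadjusted p = 0.0029, limma adjusted p = 0.19). In the same libraries the sum of 7 fibroblast genes was 285537 to 444157 in KO and 199943 to 334682 in WT. Bhlhe40, a transcriptional repressor, had 15938 ± 2893 in KO and 13171 ± 653 in WT, and Mxi1, an antagonist of MYC, 1802 ± 281 in KO and 1404 ± 231 in WT (± SD, 5 and 4 libraries; limma adjusted p = 0.51 and 0.58). Ak4, a mitochondrial adenylate kinase, was at the floor in 4 of 5 KO and 1 of 4 WT libraries. It had 13.8 in the other KO library and 16.4 to 139 in the other 3 WT libraries. Its log2 difference was -3.20 (unadjusted p = 0.032, limma adjusted p = 0.49). Nos2, another of the 25, had 23.9 ± 47.9 in KO and 467 ± 603 in WT (± SD, 5 and 4 libraries). The log2 difference of Nos2 was -2.83 (95% interval -7.01 to 1.35, limma adjusted p = 0.71).

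Of 13 components of the HIF pathway 0 passed, against 0.309% of all genes, and 0 had an unadjusted p under 0.05, against 9.14%. The median was -0.02. The 4 with the smallest p were Ep300, a coactivator, with 1083 ± 282 normalized counts in KO libraries, against 1447 ± 294 in WT, Epas1, which encodes HIF2-alpha, with 922 ± 300 in KO and 730 ± 336 in WT (± SD, 5 and 4 libraries), and the rarely detected Hif3a and Arnt2. Hif3a was at the floor in 2 of 5 KO libraries, with 14.4 to 35.7 in the other 3, and at the floor in all 4 WT libraries. Arnt2 was at the floor in 3 of 5 KO and 2 of 4 WT libraries. The limma adjusted p of these 4 genes lay between 0.61 and 0.77.

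Routes that branch from glycolysis gave the same counts of 0, where 0.309% of all genes passed. Of 8 genes of the pentose phosphate pathway 0 passed, with a median of -0.02, and 0 had an unadjusted p under 0.05. Pgd, the enzyme that follows glucose-6-phosphate dehydrogenase in NADPH production, had 9706 ± 528 normalized counts in KO libraries, against 8622 ± 1570 in WT. G6pdx, that dehydrogenase, had 7192 ± 683 in KO and 7617 ± 1057 in WT, and Taldo1, the transaldolase, 21717 ± 1541 in KO and 22646 ± 872 in WT. Shpk, a sugar kinase, had 3.29 to 269 normalized counts in KO libraries, against 1.36 to 153 in 3 WT libraries and the floor in WT replicate 3. Of 13 genes of pyruvate entry to mitochondria 0 passed and 1 had an unadjusted p under 0.05, against 9.14% of all genes. That gene was Pdk4, whose kinase turns off pyruvate dehydrogenase, with 560, 461, 974, 870 and 714 in KO replicates 1 to 5, against 544, 194, 302 and 495 in WT replicates 1 to 4 (log2 difference 0.96, SE 0.37, limma adjusted p = 0.42). Pdp1, the opposing phosphatase, had 1073 ± 238 in KO and 754 ± 286 in WT, Pdhb, a subunit of pyruvate dehydrogenase, 6280 ± 346 in KO and 5814 ± 1025 in WT, and Pcx, the pyruvate carboxylase, 189 ± 114 in KO and 149 ± 209 in WT. The log2 difference of Pcx, 1.48, was 3.38 among the 6 deeper libraries and 0.61 once WT replicate 2 was left out. Of 12 genes of gluconeogenesis and glycogen 0 passed and 1 had an unadjusted p under 0.05, beside the same 9.14% of all genes. It was Pck2, the mitochondrial PEP carboxykinase, with 1431 ± 218 in KO and 1027 ± 400 in WT (± SD, 5 and 4 libraries, limma adjusted p = 0.52). G6pc3, Ugp2 and Pygb followed, with log2 differences of 0.28, 0.18 and 0.25 and adjusted p between 0.72 and 0.76.

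**Figure D5:**
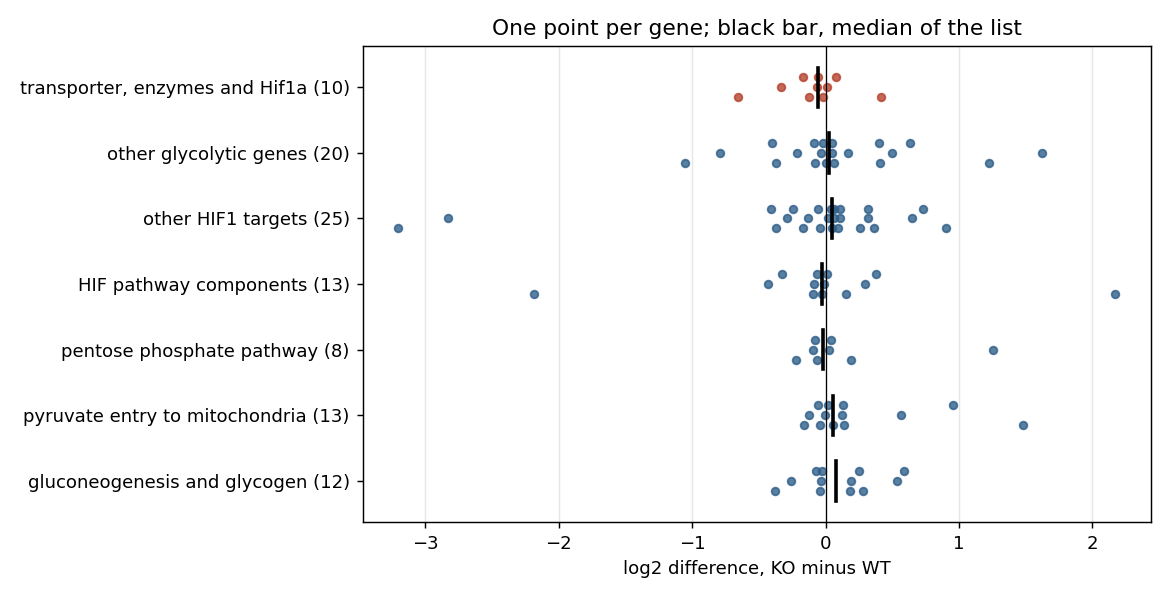
Log2 difference (KO minus WT, horizontal axis) of each gene of the 7 lists, 1 point per gene, with the median of each list as a black bar and the number of genes in parentheses. The medians lie between -0.06 and 0.08. The points farthest from 0 include Ak4, Arnt2 and Hif3a, which are at the floor in 5, 5 and 6 of 9 libraries, and Nos2, at -2.83.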

How the data were processed

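The libraries were strand-specific, made with dUTP from RNA bound to oligo-dT beads, per the labels' protocols. The submitters' processing notes list mm10 as the build and CASAVA 1.8.2, HISAT, Partek and DESeq2 as tools, with no roles; no source used here gives the annotation, the gene filter or how reads were counted. The deposited table holds 1 signal value for each gene in each library, a read count over a library factor, and any value under 1 is written as 1. This was read from the values: above 1, between 99.5% and 99.7% in each library were whole multiples of a step (tolerance 0.1 of a step). No 2 libraries shared more than 2 values above the floor. Because of the floor no count model was the main test.

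Values plus 1 were taken to log2 and fitted with limma 3.58.1 (R 4.3.3) by genotype alone, with a mean-variance trend; p-values were adjusted by Benjamini-Hochberg across all 14905 genes, with a threshold of 0.05. Low genes have understated folds on this scale. The code was tested on simulated data. Genes named are Nucb2, the 10 members, the 4 smallest p of each of 6 pathway lists, 3 genes most like Hif1a and 3 most like Pgk1, and isozymes. Nos2, Prg2 and Fcer1a are named besides, after their values were seen. The members and lists were chosen with earlier results of these data known. Elob and Eloc were matched as Tceb2 and Tceb1. Lengths and positions come from GENCODE M21 on GRCm38 (basic set, merged exons; of 2 Aldoa models the one with more exon records), promoters from RefSeq. Nothing in the labels pairs libraries of equal replicate number. Alternatives were pseudocounts of 0.1 and 10, a mean of at least 10, other scalings, limma-voom, robust moderation, the replicate block, depth class, the 6 deeper libraries, and each library left out. Python 3.11.15 and matplotlib 3.10.9 were used.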

Additional observations from a re-analysis of the deposited data

How the results depend on the processing

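None of the 10 genes passed under any alternative run, and their lowest adjusted p over these was 0.41, for Gapdh without WT replicate 1. Their median moved between -0.11 and 0.031. The count over all genes, 46, was 0 with the replicate block (1104 at an unadjusted p under 0.05) and 0 in the 6 deeper libraries alone (1039). It was 31 with limma-voom, of which 12 were higher and 19 lower in KO. With 1 library left out it was 5 to 38, 38 without WT replicate 1 and at most 19 without any of the others. The replicate block also leaves out KO replicate 5, and without that library but with no block the count was 9. The causes were not tested. Correlations of deviations between same-numbered libraries lay between -0.053 and 0.090, and 2 of 4 KO libraries correlated best with their own number. Nucb2 was -1.58 (adjusted p = 0.052) with the replicate block and -1.61 (0.12) in the deeper libraries.

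Some signs turned. With quantile normalization Pgk1 was 0.011, Taldo1 0.013 and Eno2 -0.0046. With limma-voom Pkm was 0.0038 and Eno2 -0.012, with the replicate block Pkm was 0.019 and Eno2 -0.075, and with depth class as a term Pkm was 0.0021. In the 6 deeper libraries Pgk1 was 0.015, Pkm 0.17, Ldha 0.047, Arnt2 0.32, Shpk -1.72, G6pdx 0.041, Bckdk 0.12, Cs 0.025, Acadvl 0.13, Eno2 -0.25 and Eno3 -0.23. With 1 library left out the values ranged from -0.12 to 0.22 for Slc2a1, -0.047 to 0.070 for Aldoa, -0.083 to 0.052 for Pkm, -0.15 to 0.011 for G6pdx, -0.11 to 0.040 for Bckdk, -0.18 to 0.016 for Acadvl, -0.15 to 0.10 for Hk1, -0.037 to 0.19 for Pfkp and -0.28 to 0.25 for Eno2. Hk2, Hk3, Pfkl, Gapdh and Hif1a kept their direction under every alternative, though Gapdh was -0.021 and Hk3 -0.066 in the 6 deeper libraries.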
